A study of Mus musculus with 16 samples.

Results

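The genes described here, 10 of the 50600 counted, were measured in microglia and CD11c cells of mice with and without brain ischemia. They serve extracellular nucleotide signalling, apart from Gpr34 and P2ry10, which encode receptors for lysophosphatidylserine. The 10 genes were listed by name: the G protein-coupled receptors P2ry12, P2ry13, P2ry6, P2ry10, Gpr34 and Adora3, the ATP-gated channels P2rx4 and P2rx7, and the surface enzymes Entpd1 and Nt5e. No measured value entered the choice of the list, but it was drawn up with earlier results of these data known. All 10 genes passed the filter on low counts over all samples and were tested. Nt5e passed through the CD11c samples, since in a fit of the microglial samples alone the filter removed it. Its calls as higher in CD11c cells than in microglia are thus those of a gene kept by the groups where it was high.

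The study sequenced polyadenylated RNA of 16 sorted samples, 4 in each of 4 groups, all from male mice of 13 to 14 weeks, to find genes that mark each of the cell populations. Control microglia were CX3CR1+ cells of control brains, and ischemic microglia were CX3CR1+ cells of the ipsilateral ischemic hemisphere. Both microglial groups came from CX3CR1CreERT2:Rosa26-tdT mice, in which a tamoxifen-dependent Cre driven by the Cx3cr1 gene turns on a red fluorescent protein. Brain CD11c cells were CD11c-eYFP+ cells of the ischemic hemisphere, and spleen CD11c cells were CD11c-eYFP+ cells of the spleen. Both CD11c groups came from Tg(Itgax-Venus)1Mnz mice, whose yellow fluorescent protein is driven by the promoter of Itgax, the gene for CD11c. Mouse line and cell population therefore cannot be told apart wherever a microglial group is set against a CD11c group. The labels give neither the time after ischemia nor the disease state of the spleen donors. They do not say which samples came from separate mice, and the p-values cover the spread between samples, which may be partly technical.

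ATP and ADP that leave stressed or dying cells act as danger signals on nearby immune cells. P2X receptors are cation channels opened by ATP, and P2Y receptors are G protein-coupled receptors for ADP, UDP and related ligands. CD39, encoded by Entpd1, removes phosphates from ATP and ADP, and CD73, encoded by Nt5e, turns the AMP that remains into adenosine, which acts on the adenosine receptors. In the resting brain microglia are known for a high level of P2Y12, the ADP receptor by which their processes reach toward an injury.

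The libraries held 31569304 to 48245164 counts. A level is given as counts per 1000000 after scaling the libraries by TMM (CPM), and, where different genes are compared, as CPM per kilobase of annotated exon. The microglia marker list of 10 genes summed to 36490–42350 CPM in control and 31830–40210 CPM in ischemic microglia, to 12110–13650 in brain CD11c cells and 1073–1534 in spleen CD11c cells, and none of the 10 was at 0 in any group. The list for conventional dendritic cells (8 genes, Itgax among them) summed to 58.5–73.7, 64.2–126, 948–2188 and 1157–2053 CPM in the same order. The spleen libraries also held B cell markers (8 genes, 2574–3342 CPM, against 12.3–21.95 across the other 12 libraries), plasma cell markers (6 genes, 4612–9176 CPM) and T cell markers (9 genes, 219–557 CPM). Monocyte markers (8 genes) summed to 1162–1581 CPM in brain and 793–870 CPM in spleen CD11c cells, against 41.8–59.6 CPM in ischemic microglia. Brain CD11c replicates 1 and 2 carry titles of one kind and replicates 3 and 4 of another, and several genes below differ between these pairs.

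P2ry12 and P2ry13 lie side by side on the minus strand of mouse chromosome 3, both within the span of Med12l on the opposite strand. Both were lower in ischemic than in control microglia, and lower again in brain CD11c cells. From brain to spleen CD11c cells they parted, with P2ry12 4.09 and P2ry13 0.85 log2 units higher in the brain. P2ry10, on the X chromosome, was instead far higher in brain CD11c cells than in microglia of either group. Their promoter windows, 250 bases before to 50 bases after the transcription start, are printed 5′ to 3′ from RefSeq (GRCm38.p6) so that the neighbouring pair can be read beside P2ry10, which has 2 windows in the table. Capitals mark GAGGAA, an ETS core with the flank typical of PU.1 sites, in P2ry13 and, on the other strand (TTCCTC), in the second P2ry10 window. They also mark TGANTCA, a loose form of the AP-1 site that takes any middle base, in the first P2ry10 window, where it reads TGAATCA; the AP-1 consensus itself has C or G there.

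P2ry12, chr3:59262936-59263235, minus strand: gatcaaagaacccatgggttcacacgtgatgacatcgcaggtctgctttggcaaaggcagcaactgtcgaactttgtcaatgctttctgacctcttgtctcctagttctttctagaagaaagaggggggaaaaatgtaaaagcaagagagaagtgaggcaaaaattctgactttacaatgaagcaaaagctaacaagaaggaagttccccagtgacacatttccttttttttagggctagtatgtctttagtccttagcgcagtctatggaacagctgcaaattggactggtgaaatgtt
P2ry13, chr3:59210833-59211132, minus strand: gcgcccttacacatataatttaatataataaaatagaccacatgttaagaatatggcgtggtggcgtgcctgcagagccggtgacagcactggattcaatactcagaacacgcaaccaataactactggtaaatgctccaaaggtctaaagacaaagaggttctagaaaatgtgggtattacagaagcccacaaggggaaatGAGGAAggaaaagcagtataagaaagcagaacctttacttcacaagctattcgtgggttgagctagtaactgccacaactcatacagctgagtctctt
P2ry10 first window, chrX:107088242-107088541, plus strand: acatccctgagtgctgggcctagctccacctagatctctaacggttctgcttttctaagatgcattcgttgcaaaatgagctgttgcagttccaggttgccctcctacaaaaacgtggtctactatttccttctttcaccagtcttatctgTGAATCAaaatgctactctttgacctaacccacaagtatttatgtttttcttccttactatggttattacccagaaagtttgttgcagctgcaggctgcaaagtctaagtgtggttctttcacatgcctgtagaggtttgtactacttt
P2ry10 second window, chrX:107089083-107089382, plus strand: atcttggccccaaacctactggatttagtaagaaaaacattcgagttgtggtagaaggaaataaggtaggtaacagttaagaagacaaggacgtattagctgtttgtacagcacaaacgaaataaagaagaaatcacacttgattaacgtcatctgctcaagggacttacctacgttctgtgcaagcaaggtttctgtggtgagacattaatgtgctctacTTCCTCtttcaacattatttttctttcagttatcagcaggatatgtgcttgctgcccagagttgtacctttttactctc

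The promoter table had an entry for 8 of the 10 genes, with 11 windows in all, and none for P2ry6 and Gpr34. The motifs searched on both strands were the PU.1-type element GAGGAA, the loose AP-1 form TGANTCA, the ETS-IRF composite element and the MEF2 site, and no 2 of their matches here overlapped. GAGGAA was found in 28.3% of all 32851 windows, and among these genes in windows of P2ry13 (first base 48 before the start), P2rx7, Adora3, Entpd1 and P2ry10. TGANTCA was found in 7.81% of all windows, and here in Adora3, P2rx7 and P2ry10. The ETS-IRF composite element (2.72% of all windows) and the MEF2 site (3.69%) had no match in the 11 windows. The P2ry12 window held none of the 4 motifs. It follows the RefSeq start and lies wholly upstream of the P2ry12 span given below, which on the minus strand starts at 59262871. The windows of P2ry12 and P2ry13 each had a GC content of 42.3%, that of Nt5e 71.0%, and the median of all windows was 52.7%.

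Per kilobase, P2ry12 was the most abundant of the 10 transcripts in control microglia, at 1882 ± 190 CPM per kb (SD, n = 4), ahead of Gpr34 at 857 ± 95.8 and P2ry13 at 723 ± 60.5 CPM per kb. The order of these 3 was the same in ischemic microglia and in brain CD11c cells, at 851 ± 160, 524 ± 82.3 and 294 ± 47.4, and at 199 ± 57.4, 151 ± 23.7 and 81.1 ± 5.49 CPM per kb. In spleen CD11c cells P2ry13 led at 45.0 ± 9.90 CPM per kb, and the means of Gpr34 (28.6 ± 8.83), Entpd1 (27.9 ± 4.98) and P2ry10 (27.1 ± 2.87) lay within 1 SD of each other. P2ry12 made up 49.6 ± 0.91% of the summed CPM per kb of the 10 genes in control microglia, 44.1 ± 2.70% in ischemic microglia, 28.6 ± 2.99% in brain CD11c cells and 6.88 ± 0.75% in spleen CD11c cells. P2ry10 made up 0.014 ± 0.0040%, 0.033 ± 0.017%, 16.8 ± 5.66% and 16.3 ± 2.83% in the same order. The sum over the 10 genes was 3790 ± 351, 1920 ± 281, 686 ± 129 and 169 ± 23.5 CPM per kb.

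**Figure D1:**
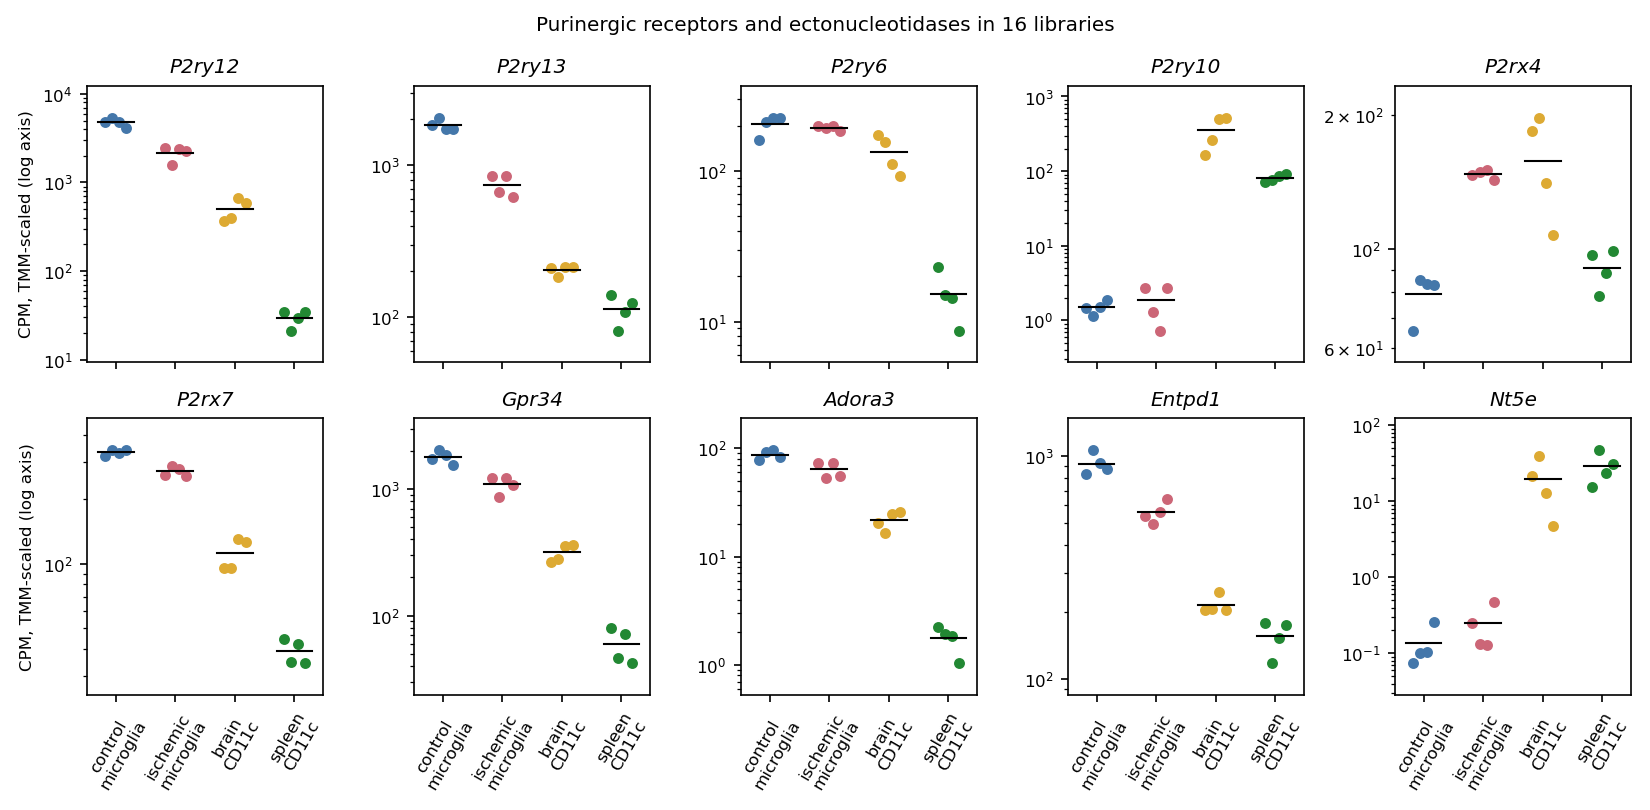
Level of each of the 10 genes (CPM after TMM scaling, log axis) in every library of the 4 groups; each point is a library and each line the mean of 4. The means of 7 genes step down from microglia to spleen CD11c cells, P2rx4 was highest in the 2 ischemic brain groups, and P2ry10 and Nt5e were low in microglia and high in both CD11c groups.

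**Figure D2:**
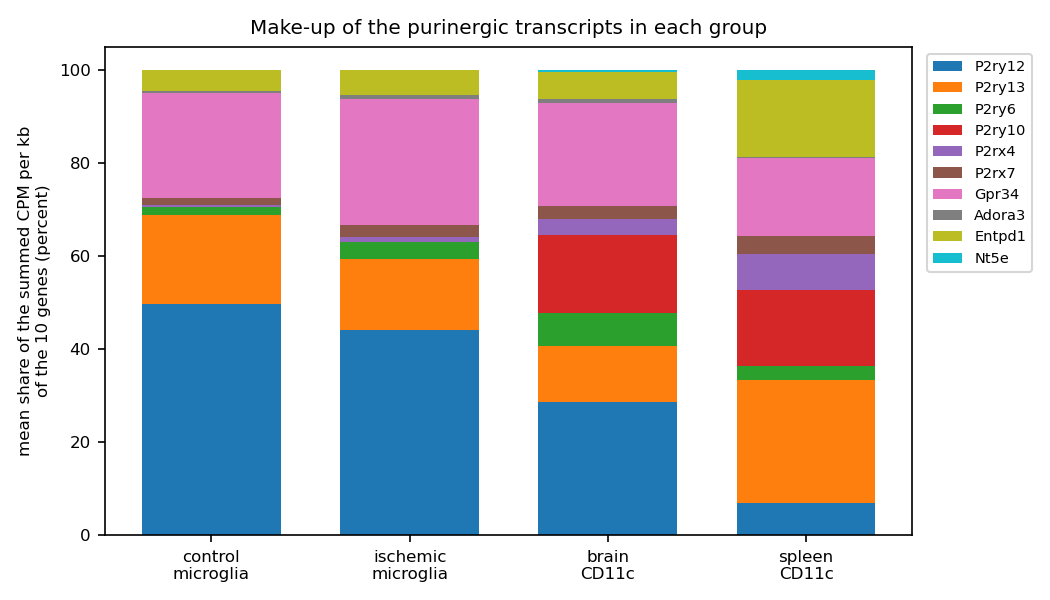
Mean share (percent) of each gene in the summed CPM per kilobase of the 10 genes, for the 4 libraries of each group. P2ry12 takes 49.6% in control microglia and 6.88% in spleen CD11c cells, while P2ry10 takes 16.8% and 16.3% in the 2 CD11c groups.

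Ischemic microglia were compared with control microglia to see how the receptors and enzymes stood in the injured hemisphere. Of the 10 genes 4 fell and 1 rose at a Benjamini-Hochberg adjusted p under 0.05 (edgeR quasi-likelihood test, adjusted over 16345 genes), while 18% of all genes tested fell and 17.7% rose. P2ry12, P2ry13, Gpr34 and Entpd1 fell, and P2rx4 rose. The median log2 fold change of the 10 genes was -0.38, against -0.05 over all genes tested. Fewer cells of a type and less RNA per cell cannot be told apart in such bulk samples, here or below. Where libraries of a gene are said not to overlap, the share of all genes without overlap was not counted.

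P2ry12 (ENSMUSG00000036353; GRCm38 chromosome 3, 59216272 to 59262871) stood at 4811, 5356, 4831 and 4172 CPM in control microglia and at 2438, 1567, 2393 and 2265 CPM in ischemic microglia. Every ischemic library lay below every control library, and replicate 2 was the lowest. The change was -1.15 ± 0.21 log2 units (SE; edgeR adjusted p = 0.000515).
P2ry13 (ENSMUSG00000036362; chromosome 3, 59207892 to 59210882), which encodes a second receptor for ADP, stood at 1828, 2044, 1724 and 1716 CPM in control microglia and at 848, 662, 846 and 621 CPM in ischemic microglia. The libraries did not overlap, and the change was -1.30 ± 0.15 log2 units (edgeR adjusted p = 1.38e-05).
Med12l, whose span holds both genes and whose exons overlap those of P2ry12 on the other strand, stood at 87.5 ± 12.3 CPM in control and 41.6 ± 5.83 CPM in ischemic microglia (SD, n = 4 each). The strand setting of the counting is not given in the sources used here, so reads of P2ry12 and Med12l over shared exons cannot be told apart.

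Gpr34 (ENSMUSG00000040229; X chromosome, 13632089 to 13640858), a receptor for lysophosphatidylserine related to the P2Y receptors, stood at 1741, 2025, 1848 and 1547 CPM in control microglia and at 1220, 858, 1224 and 1076 CPM in ischemic microglia. The groups were apart, with ischemic replicate 2 again the lowest, and the change was -0.71 ± 0.19 log2 units (edgeR adjusted p = 0.00878). The gene lies within Cask on the opposite strand, with no shared exon, and Cask stood at 91.1 ± 6.44 and 38.3 ± 3.52 CPM.
Entpd1 (ENSMUSG00000048120; chromosome 19, 40612366 to 40741602), which encodes CD39, stood at 827, 1061, 932 and 873 CPM in control microglia and at 535, 494, 563 and 640 CPM in ischemic microglia. No ischemic library reached the control range, and the change was -0.73 ± 0.13 log2 units (edgeR adjusted p = 0.000598).

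P2rx4 (ENSMUSG00000029470; chromosome 5, 122707544 to 122729738), an ATP-gated channel known to be induced in activated microglia, stood at 65.7, 85.2, 83.5 and 83.3 CPM in control microglia and at 146, 149, 150 and 143 CPM in ischemic microglia. The ischemic libraries lay close together and above all controls, and the change was 0.89 ± 0.15 log2 units (edgeR adjusted p = 0.000313).
P2rx7 (ENSMUSG00000029468; chromosome 5, 122643911 to 122691432), the channel upstream of inflammasome activation and the neighbour of P2rx4 on the same strand, stood at 319, 338, 327 and 339 CPM in control and 260, 287, 277 and 258 CPM in ischemic microglia. The libraries of the groups did not overlap, but the difference of -0.29 ± 0.12 log2 units did not pass the test (edgeR adjusted p = 0.0622). It passed in edgeR with the 8 microglial libraries alone (-0.25, adjusted p = 0.0121) and with library totals as scaling (-0.44, adjusted p = 0.0226).

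Adora3 (ENSMUSG00000000562; chromosome 3, 105870858 to 105908926), the A3 adenosine receptor, stood at 78.3, 93.2, 96.2 and 83.5 CPM in control and 72.7, 53.1, 73.9 and 56.1 CPM in ischemic microglia. The groups did not overlap, and the difference of -0.46 ± 0.18 log2 units lay near the threshold (edgeR adjusted p = 0.0545). DESeq2 (-0.44, adjusted p = 0.0466) and limma-voom (-0.47, adjusted p = 0.0135) called it, as did edgeR with library totals (-0.61, adjusted p = 0.0259), with the 8 microglial libraries alone (-0.42, adjusted p = 0.0121) and without control replicate 1, ischemic replicate 1 or ischemic replicate 3 (adjusted p = 0.049, 0.0481 and 0.0439). Adora3 shares exons with Tmigd3 on the same strand, so its count is uncertain; Tmigd3 itself had group means of 0.12 to 0.66 CPM.

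P2ry6 (ENSMUSG00000048779; chromosome 7, 100937630 to 100974649), the UDP receptor known to prompt microglial phagocytosis, stood at 160, 213, 225 and 225 CPM in control and 199, 194, 198 and 184 CPM in ischemic microglia. The groups overlapped and the difference was -0.09 ± 0.23 log2 units, with an approximate 95% interval of -0.54 to 0.36 (edgeR adjusted p = 0.804). The gene next to it on the same strand, P2ry2, which encodes a receptor for ATP and UTP, was at 1.44 ± 1.40 CPM in control and 20.3 ± 9.68 CPM in ischemic microglia (SD) and rose by the test (log2 3.82 ± 0.62; edgeR adjusted p = 0.000256). The neighbouring UDP and UTP receptor genes thus had different courses in the same libraries, although the difference between them was not tested.

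P2ry10 (ENSMUSG00000050921; X chromosome, 107088492 to 107104974), a lysophosphatidylserine receptor of lymphoid and myeloid cells, was near the bottom of the range in both microglial groups, at 1.15 to 1.91 CPM in control and 0.73 to 2.76 CPM in ischemic microglia (log2 0.33 ± 0.42; edgeR adjusted p = 0.579). Nt5e (ENSMUSG00000032420; chromosome 9, 88327197 to 88372092), which encodes CD73, had only 3 to 9 counts per library in control and 5 to 18 in ischemic microglia, or 0.075 to 0.26 and 0.13 to 0.48 CPM. At that depth the difference of 0.91 log2 units had an approximate 95% interval of -0.87 to 2.68 (edgeR adjusted p = 0.463). Microglia of either group therefore held abundant Entpd1 transcript beside a few reads of Nt5e.

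**Figure D3:**
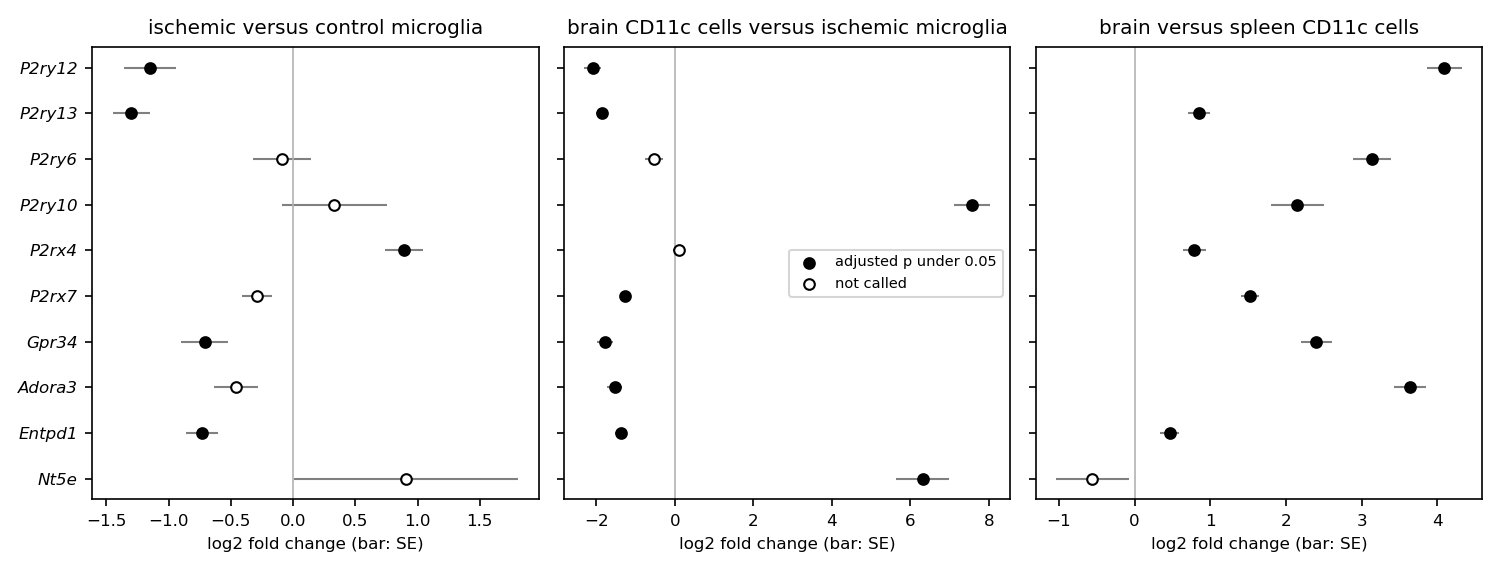
Log2 fold change of each gene (horizontal axis; bars are standard errors) in 3 comparisons of 4 against 4 libraries; filled points passed an adjusted p of 0.05 and open points did not. There are 5 filled genes in the microglial comparison, 8 between brain CD11c cells and ischemic microglia, and 9 between brain and spleen CD11c cells; the horizontal scales differ.

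Brain CD11c cells were set against the microglia of the ischemic hemisphere, the comparison the study names as its aim. Of the 10 genes 6 were lower and 2 higher in CD11c cells, where 19.1% and 19.7% of all genes tested were lower and higher. P2ry12, P2ry13, P2rx7, Gpr34, Adora3 and Entpd1 were lower, P2ry10 and Nt5e were higher, and P2ry6 and P2rx4 did not pass. The median log2 fold change of the 10 genes was -1.32, against 0 over all genes tested.

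P2ry10 was the most different of the 10 genes, at 165, 258, 495 and 517 CPM in the brain CD11c libraries against at most 2.76 CPM in ischemic microglia. Replicates 3 and 4 held more than replicates 1 and 2, and none came near the microglial range. The difference was 7.57 ± 0.46 log2 units (edgeR adjusted p = 7.33e-09), 6.80 with replicates 1 and 2 alone and 8.08 with replicates 3 and 4 alone. The conventional dendritic cell markers summed to 948, 1371, 2113 and 2188 CPM in the same 4 libraries, and 7 of the 8 were called higher than in ischemic microglia (median log2 4.34), as were 8 of the 8 monocyte markers (median log2 5.97; 1581, 1275, 1162 and 1222 CPM summed). The dendritic cell list includes Itgax, whose promoter drives the reporter used to sort the CD11c cells. A higher Itgax level in those cells is thus not independent of the sort. The part of dendritic cells and monocytes in the P2ry10 level was not tested.
Nt5e stood at 21.6, 40.0, 13.0 and 4.75 CPM in brain CD11c cells, all above the highest ischemic microglia library at 0.48 CPM. The split went the other way, with less in replicates 3 and 4, and the difference was 6.31 ± 0.67 log2 units (edgeR adjusted p = 2.5e-06), 6.94 and 5.16 with each pair alone. Border macrophage markers (9 genes) summed to 2454, 2369, 1055 and 846 CPM in these libraries, and none was at 0. In ischemic microglia the same list summed to 2123–2860 CPM. Of the 9 markers 1 was called higher and 4 lower in brain CD11c cells than in ischemic microglia. The part of border macrophages in the Nt5e level was not tested.

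P2ry12 stood at 367, 398, 669 and 588 CPM in brain CD11c cells, or 17.0, 18.4, 30.9 and 27.2% of the ischemic microglia mean (log2 -2.10 ± 0.21). P2ry13 stood at 209, 185, 212 and 214 CPM, or 24.8 to 28.8% (log2 -1.86 ± 0.16; edgeR adjusted p = 1.15e-07), and Gpr34 at 267, 281, 355 and 363 CPM, or 24.4 to 33.1% (log2 -1.79 ± 0.20; edgeR adjusted p = 2.29e-06). All 3 were below every microglial library.
Adora3, at 20.6, 16.5, 24.9 and 25.7 CPM, averaged 34.3% of the ischemic microglia mean, Entpd1, at 204, 206, 246 and 204 CPM, 38.6%, and P2rx7, at 95.3, 95.3, 131 and 126 CPM, 41.4%. Each of these was also apart from the microglial libraries, at -1.54 ± 0.18, -1.38 ± 0.14 and -1.27 ± 0.12 log2 units.
The 10 microglia markers stood at 22.8 to 40.5% of their ischemic microglia mean in the same libraries. The 6 receptors and enzymes, taken because they were called lower, lay in nearly the same band, at 23.4 to 41.4%. Sall1 (17.9, 20.7, 39.9 and 34.9%) and Siglech (17.3, 18.4, 34.6 and 37.3%) were higher in replicates 3 and 4, as P2ry12 was, while Fcrls and Olfml3 were higher in replicates 1 and 2. In spleen CD11c cells Entpd1 stood at 27.9% of the ischemic microglia mean, P2ry13 at 15.3% and P2rx7 at 14.4%. Gpr34 stood there at 5.5%, Adora3 at 2.8% and P2ry12 at 1.4%, and the markers at 0.012 to 10.9%. The part of microglial RNA in the 6 brain CD11c values was not tested.

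In brain CD11c cells P2ry6 and P2rx4 stood outside the shared band. P2ry6 was at 174, 156, 111 and 93.2 CPM, or 68.9% of the ischemic microglia mean, and P2rx4 at 183, 197, 141 and 108 CPM, or 107%. Both were higher in brain CD11c replicates 1 and 2 than in replicates 3 and 4, as the border macrophage markers were, whose part was not tested, and P2rx4 straddled the ischemic microglia range of 143 to 150 CPM.
P2rx4 differed by 0.10 ± 0.15 log2 units from ischemic microglia, with an approximate interval of -0.20 to 0.39 (edgeR adjusted p = 0.659), and was called higher with replicates 1 and 2 alone (0.37, adjusted p = 0.015), while with replicates 3 and 4 alone its sign turned (-0.23, adjusted p = 0.18). P2ry6 differed by -0.54 ± 0.23 log2 units (edgeR adjusted p = 0.0775). It was called lower by DESeq2 (-0.56, adjusted p = 0.0421) and limma-voom (-0.58, adjusted p = 0.0353), and by edgeR with the 8 libraries of both groups alone (-0.51, adjusted p = 0.0428), without brain CD11c replicate 1 (-0.67, adjusted p = 0.0379) and with replicates 3 and 4 alone (-0.91, adjusted p = 0.0119).

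**Figure D4:**
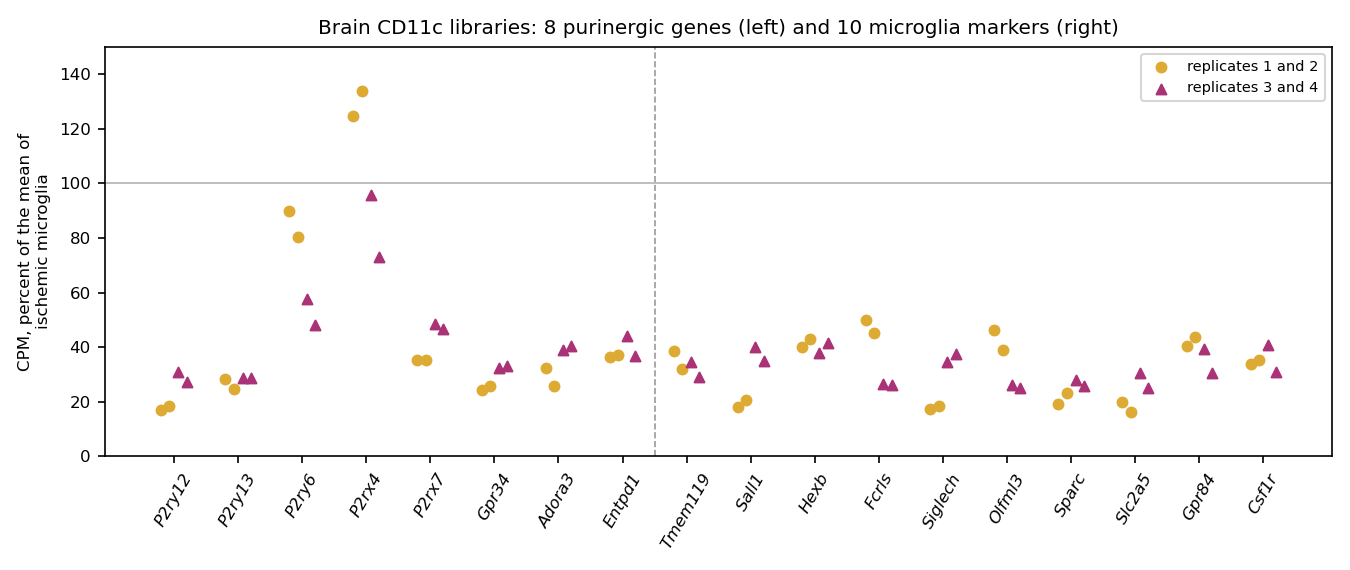
Level in each brain CD11c library as a percent of the mean of ischemic microglia (vertical axis), for the 8 genes detected well in microglia and for 10 microglia markers; circles are replicates 1 and 2, triangles replicates 3 and 4. Of the 8 genes 6 average 23.4 to 41.4%, beside 22.8 to 40.5% for the markers, while P2ry6 averages 68.9% and P2rx4 107%.

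Against control microglia the brain CD11c cells were lower for 7 genes and higher for 3 (P2ry10, P2rx4 and Nt5e), beside 29.6% of all genes tested lower and 29.3% higher; this comparison shares its CD11c libraries with the one above. P2rx4 was 0.99 ± 0.15 log2 units higher (edgeR adjusted p = 3.47e-05). P2ry6 had the smallest difference of the 10, at -0.62 ± 0.23 log2 units (edgeR adjusted p = 0.0288), with overlapping libraries. Its call was lost without control replicate 2, 3 or 4 (adjusted p = 0.0566, 0.0635 and 0.0655), without brain CD11c replicate 3 or 4 (adjusted p = 0.0763 and 0.0865), and with brain CD11c replicates 1 and 2 alone (-0.32, adjusted p = 0.293).

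CD11c cells of the ischemic brain were then set against those of the spleen, sorted by the same reporter. Of the 10 genes 9 were higher in the brain and 0 lower, where 31.2% of all genes tested were higher and 33% lower. The median log2 fold change of the 10 genes was 1.84, against -0.04 over all genes tested. The microglia markers were higher in the brain as well, with their sum at 12110–13650 against 1073–1534 CPM, and their part in the 9 calls was not tested.

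P2ry12 stood at 34.5, 21.3, 29.2 and 34.2 CPM in the spleen, far below the lowest brain library at 367 CPM (log2 4.09 ± 0.23; edgeR adjusted p = 3.14e-10). Adora3 stood at 2.24, 1.91, 1.86 and 1.04 CPM (log2 3.64 ± 0.21; edgeR adjusted p = 3.16e-10) and P2ry6 at 22.9, 14.9, 14.4 and 8.71 CPM (log2 3.13 ± 0.25; edgeR adjusted p = 2.32e-08). These 3 had the widest gaps between brain and spleen.
Gpr34, at 42.2 to 79.6 CPM in the spleen, was 2.40 ± 0.20 log2 units higher in the brain, P2ry10, at 71.1 to 90.2 CPM, 2.15 ± 0.35, and P2rx7, at 34.4 to 44.4 CPM, 1.52 ± 0.12. None of these overlapped between the 2 groups, but the share of all genes without overlap was not counted.
P2ry13 stood at 141, 81.7, 108 and 124 CPM in the spleen and was 0.85 ± 0.15 log2 units higher in the brain (edgeR adjusted p = 0.000129). P2rx4, at 97.2, 78.7, 88.4 and 98.8 CPM, differed by 0.79 ± 0.15 (edgeR adjusted p = 0.000235) and Entpd1, at 178, 118, 153 and 175 CPM, by 0.46 ± 0.13 (edgeR adjusted p = 0.00619). Entpd1 had the smallest of the called differences, and with library totals as scaling it was not called (0.21, adjusted p = 0.184).

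Nt5e was the exception, at 15.6, 46.9, 23.9 and 30.9 CPM in the spleen, overlapping the brain CD11c range of 4.75 to 40.0 CPM. The difference was -0.56 ± 0.48 log2 units, with an approximate interval of -1.51 to 0.38 (edgeR adjusted p = 0.32). It was called lower in the brain without brain CD11c replicate 2 (-1.19, adjusted p = 0.0379) and with replicates 3 and 4 alone (-1.76, adjusted p = 0.00766), against 0.07 with replicates 1 and 2 alone (adjusted p = 0.882). CD73 is a known surface protein of lymphocytes, and the summed B cell, plasma cell and T cell markers were higher in every spleen library than in any other, although the plasma cell gene Sdc1 was high in brain CD11c cells too; the part of such cells in the Nt5e and P2ry10 levels of the spleen was not tested.

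Spleen CD11c cells were lower than control microglia for 7 of the 10 genes and higher for 2 (P2ry10 and Nt5e), beside 31.7% and 37.1% of all genes tested, and lower than ischemic microglia for 8 and higher for the same 2, beside 31.3% and 37.2%. Their medians were -3.42 and -2.75 log2 units, against 0.11 and 0.12 over all genes tested. These 2 comparisons share the spleen libraries and are not independent. P2rx4 was the gene not called against control microglia (log2 0.19 ± 0.15; edgeR adjusted p = 0.266), although library totals called it higher in the spleen (0.42, adjusted p = 0.0112). Against ischemic microglia P2rx4 was 0.70 log2 units lower, at -0.70 ± 0.15 (edgeR adjusted p = 0.000617).

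Ranked by group, P2ry12, P2ry13, Gpr34 and Entpd1 followed one order, control microglia, ischemic microglia, brain CD11c cells and spleen CD11c cells, with every neighbouring pair of groups apart by the test. P2rx7 and Adora3 followed the same order, but their first step, from control to ischemic microglia, did not pass. For P2ry6 the first 3 groups were not separated by neighbouring tests and the spleen lay lowest. For P2rx4 the brain CD11c cells and ischemic microglia, which did not differ by the test, lay above the spleen CD11c cells and control microglia, which did not differ either. P2ry10 was highest in brain CD11c cells, then in spleen CD11c cells, and lowest in both microglial groups, and Nt5e was high in both CD11c groups and low in both microglial groups.

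The ADP receptors P2ry13 and P2ry12 were compared within each library, which sets aside the scaling between libraries; their exon lengths, 2.53 and 2.55 kb, are nearly equal. The ratio of P2ry13 to P2ry12 counts was 0.38, 0.38, 0.36 and 0.41 in control microglia and 0.35, 0.42, 0.35 and 0.27 in ischemic microglia. It was 0.57, 0.46, 0.32 and 0.36 in brain CD11c cells, and 4.08, 3.84, 3.72 and 3.62 in spleen CD11c cells. The 3 brain groups overlapped, while every spleen library held more P2ry13 than P2ry12.
The mean log2 ratio of brain CD11c cells lay 3.19 below that of the spleen (two-sided exact permutation test over 70 splits, p = 0.0286, the smallest this design gives; adjusted p = 0.0857 over 6 ratio tests). The ratio differed by -0.15 between ischemic and control microglia (exact p = 0.371) and by 0.28 between brain CD11c cells and ischemic microglia (exact p = 0.286).

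The enzyme pair was compared in the same way, between groups only, since the exons of Nt5e (8.60 kb) are longer than those of Entpd1 (5.58 kb). The log2 ratio of Nt5e to Entpd1 counts averaged -12.75 ± 0.75 in control microglia, -11.25 ± 0.72 in ischemic microglia, -3.82 ± 1.32 in brain CD11c cells and -2.50 ± 0.90 in those of the spleen (SD over 4 libraries). Brain CD11c cells lay 7.43 above ischemic microglia, with no overlap (exact permutation p = 0.0286, adjusted p = 0.0857). The differences of 1.5 between the microglial groups (exact p = 0.0857) and of -1.31 between brain and spleen CD11c cells (exact p = 0.2) were not called. The step between microglia and CD11c cells came from both genes, Entpd1 lower and Nt5e higher in CD11c cells.

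**Figure D5:**
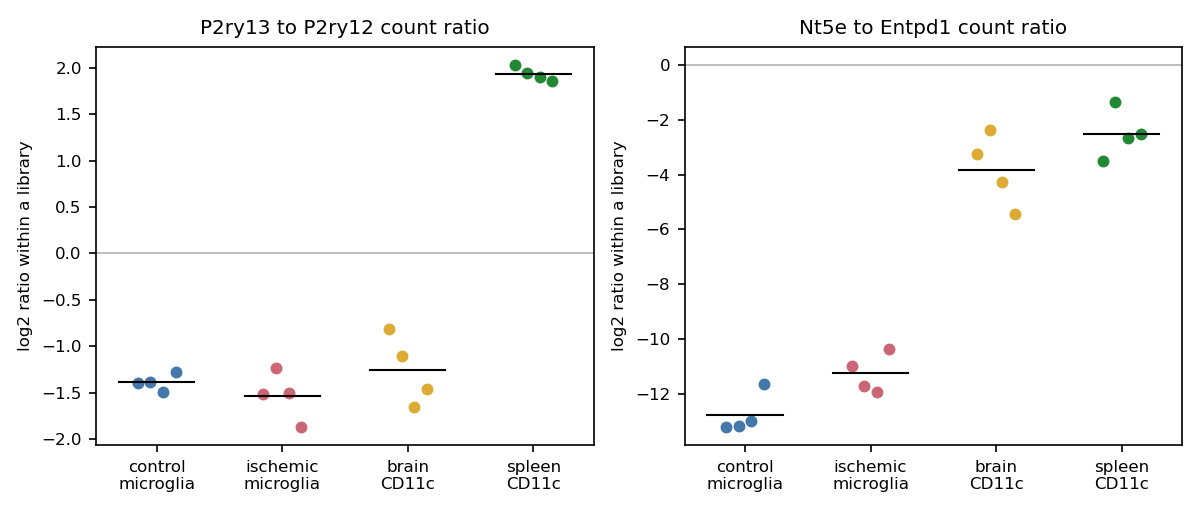
Log2 ratio of P2ry13 to P2ry12 counts (left) and of Nt5e to Entpd1 counts (right) within each library of the 4 groups; points are libraries and lines are means of 4. The left ratio is near 2 in the spleen and between -1.87 and -0.81 in all brain libraries, and the right ratio is below -10 in microglia and between -5.42 and -1.33 in CD11c cells.

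The rest of the pathway was taken from lists of 43 further genes, of which 33 were tested. Between ischemic and control microglia 8 of the 33 rose and 5 fell; between brain CD11c cells and ischemic microglia 15 were higher and 6 lower; and between brain and spleen CD11c cells 12 were higher and 13 lower. Over all genes tested the shares were 17.7% and 18%, 19.7% and 19.1%, and 31.2% and 33% in the same order. The medians of the 33 were -0.08, 0.36 and -0.23 log2 units, and their counts are given as a description.

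Of the 4 other P2X channel genes tested, 1 (P2rx5) was called between the microglial groups, at levels below 0.1 CPM, and of the 3 intracellular NTPDases 1 (Entpd6) fell, from 27.7 to 20.7 CPM. Among P2Y receptors and their relatives, 2 of the 4 other P2Y genes tested rose in ischemic microglia, P2ry2 (above) and P2ry14, a receptor for UDP-sugars, at 0.59 ± 0.13 and 2.68 ± 0.40 CPM (P2ry14 and the low genes of the next paragraph were chosen after their values were seen). P2ry10b, the neighbour of P2ry10, fell from 26.4 ± 4.44 to 17.2 ± 1.03 CPM (log2 -0.62 ± 0.16; edgeR adjusted p = 0.0081). In brain CD11c cells P2ry10b stood at 19.3 ± 4.74 CPM and was not called against ischemic microglia, in contrast to P2ry10 itself.
Gpr171, a receptor related to the P2Y family, stood at 252 ± 106 CPM in brain CD11c cells, 25.0 ± 4.22 in spleen CD11c cells and 0.81 ± 0.25 in ischemic microglia (log2 8.28 ± 0.37 against ischemic microglia; edgeR adjusted p = 1.92e-10). Like P2ry10 it was highest in brain CD11c cells, then in spleen CD11c cells, and lowest in both microglial groups. Gpr174, another lysophosphatidylserine receptor, stood at 30.7 to 39.5 CPM in the spleen and at 0 to 0.11 CPM in the other 12 libraries.

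Among adenosine receptors, 2 of the 3 others rose in ischemic microglia: Adora1 from 2.87 ± 0.62 to 18.1 ± 2.97 CPM (log2 2.66 ± 0.27; edgeR adjusted p = 2.89e-06) and Adora2b from 0.20 ± 0.08 to 1.49 ± 0.60 CPM. Adora3, in contrast, did not rise there. Adora2b reached 17.5 ± 7.98 CPM in brain CD11c cells, and Adora2a, the receptor known to restrain immune cells, stood at 9.12 ± 2.25 CPM in brain and 27.0 ± 7.28 CPM in spleen CD11c cells against 0.40 ± 0.16 CPM in ischemic microglia.

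Among surface hydrolases, 2 of the 4 others rose in ischemic microglia. Enpp1, which splits ATP into AMP and pyrophosphate, rose from 16.4 ± 1.20 to 63.3 ± 3.70 CPM (log2 1.95 ± 0.23; edgeR adjusted p = 1.84e-05), where Entpd1 fell. Acpp was the other, at 0.020 CPM in control and 0.098 CPM in ischemic microglia. In brain CD11c cells Enpp1 stood at 97.0 ± 36.2 CPM, and Entpd3, a relative of Entpd1, at 12.2 ± 4.39 CPM against 0.24 ± 0.15 in ischemic microglia.
Among genes for nucleotide release and nucleoside handling, 1 of 12 rose and 3 fell in ischemic microglia. Slc29a1, an adenosine transporter, fell from 160 ± 17.6 to 105 ± 5.56 CPM (log2 -0.61 ± 0.11; edgeR adjusted p = 0.000447). Slc17a9, the vesicular nucleotide transporter, and Ampd3, which deaminates AMP, were the others that fell, and Ada, which deaminates adenosine, rose from 3.28 ± 0.65 to 4.92 ± 0.95 CPM. In the spleen Ada stood at 28.8 ± 8.17 CPM and the nucleoside transporter Slc28a2 at 59.2 ± 4.33 CPM, both higher than in brain CD11c cells.

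The genes most like each of the 10 were taken as the 2 with the highest Pearson correlation of log2 CPM over the 16 libraries, among 8210 genes reaching 20 CPM in at least 1 group. Since the libraries fall into 4 groups, these values mostly follow the group means and are given as a description. P2ry12 was nearest to Numb and Srgap2 (r = 0.997 for each), P2ry13 to Cnrip1 (0.992) and Arhgap12 (0.990), Gpr34 to St3gal5 (0.995) and Trpm4 (0.993), P2rx7 to Scamp2 (0.998) and Slco2b1 (0.997), and Adora3 to Rtn4rl1 (0.996) and Tmc7 (0.994). P2ry6 was nearest to Ralb (0.992) and Adam15 (0.990), Entpd1 to Akr1b10 (0.988) and Arhgap12 (0.986), and P2rx4 to Emilin1 (0.983) and Twf1 (0.957).
P2ry10 was nearest to Cytip (0.994) and Gpr132 (0.987). Nt5e was nearest to Sdc1 (0.986) and Acot7 (0.975). Sdc1 is in the plasma cell marker list, and stood at 7.43 to 54.5 CPM in brain and 26.1 to 85.6 CPM in spleen CD11c cells. Jchain, another gene of that list, stood at 0.58 to 11.8 CPM in brain and 3863 to 7508 CPM in spleen CD11c cells, so the list's genes did not move together between these groups.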

How the data were processed

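The deposited table holds read counts per Ensembl gene for the 16 libraries, made by the authors and not normalized, per the file's whole-number values. The submitters' processing notes name FastQC 0.11.5, STAR 2.5.3a and the build GRCm38; counting tool, strand setting and annotation: not given in the sources used here. The labels' protocols describe a stranded polyA kit. Gene names, positions and exon lengths came from GENCODE M21 (50376 of 50600 IDs matched).

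Counts were tested with edgeR 4.0.16 (R 4.3.3; quasi-likelihood, robust, TMM scaling, filterByExpr, 16345 genes kept) in 1 model of all 16 libraries; the 6 comparisons share libraries. The SE of a fold change was its size over the square root of the F statistic, and intervals are normal approximations from it. The procedure was tested on simulated data. Ratios within libraries used log2 of counts plus 0.5. The 10 genes, the gene lists and the split of the brain CD11c libraries were chosen with earlier results of these data known. Besides the 10, the genes named by rule were up to 3 per list that passed the test, reached 20 CPM in the higher group and changed most, the overlapping or adjacent genes, and the 2 most correlated genes. Named outside the rule were P2rx5, P2ry14, Adora1, Adora2b, Acpp and Entpd3, whose means stayed below 20 CPM in every group. Single genes of the marker lists were also named outside it. Alternatives were other scalings, no filter, DESeq2 1.42.0, limma-voom (limma 3.58.1), 2-group fits, leaving out each library, and each pair of brain CD11c libraries alone. Precision rests on 4 libraries per group.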

Additional observations from a re-analysis of the deposited data

Results flagged for a closer look

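In 4 of the 40 sets of 4 libraries (10 genes in 4 groups), 1 library stood apart from the other 3 by Dixon's test of the gap to the nearest library over the range of the 4, which chance alone gives in about 1 in 20 sets. P2rx4 in control microglia replicate 1 was 65.72 CPM, where the other controls lay at 83.25 to 85.22. P2ry13 in brain CD11c replicate 2 was 184.5 CPM, against 209.2 to 214.3 in the others, and Entpd1 in brain CD11c replicate 3 was 246.3 CPM, against 203.8 to 206.3. Nt5e in control microglia replicate 4 was 0.26 CPM, against 0.075 to 0.103, a difference of a few reads.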

How the results depend on the processing

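Of 899 member fold changes recomputed under the alternatives, 871 kept both direction and side of the threshold, 18 newly passed it, 7 no longer passed and 3 changed sign. The sign changes were in values not called either way: P2rx4 between brain CD11c cells and ischemic microglia, 0.10, ran from -0.01 (without brain CD11c replicate 2) to 0.24 (without replicate 4) when single libraries were left out and was -0.23 with brain CD11c replicates 3 and 4 alone, and Nt5e between brain and spleen CD11c cells, -0.56, was 0.07 with replicates 1 and 2 alone. The P2ry13 to P2ry12 log2 ratio between brain CD11c cells and ischemic microglia, 0.28, was -0.02 with replicates 3 and 4 alone; the cause of these changes was not tested. The changes of call touch Adora3 and P2rx7 between microglial groups, P2ry6, P2rx4, Nt5e and Entpd1 in comparisons with brain CD11c cells, and P2rx4 between spleen CD11c cells and control microglia; all are given beside the results. The number of the 10 genes called stayed within 1.5 times the main number in every comparison and alternative run. Scaling by library totals moved the median log2 fold change of all genes to -0.20, 0.10, -0.30, -0.02, 0.34 and 0.50 in the 6 comparisons. No paired analysis was possible because the labels give no number or animal shared between all replicates of any 2 groups. Between brain and spleen CD11c titles, the number 11 links a single pair at most. Some title numbers also recur between ischemic microglia and spleen CD11c libraries, which came from different mouse lines. The labels do not say what these numbers mark. In the fit of the microglial groups alone the filter removed Nt5e, which has 3 to 18 counts per microglial library, so that its change there is limited by depth.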
